A study of Mus musculus with 4 samples.

Results

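The genes described here encode the enzymes that place methyl groups on histone lysines and those that remove them. They were taken by name: 45 of the 53677 gene symbols in the count files belong to the Kdm, Kmt, Setd and Setdb series or are Ehmt1, Ehmt2, Suv39h1, Suv39h2, Ezh1, Ezh2, Dot1l or Nsd1, with Kdm5d left out. RNA was sequenced from germinal vesicle (GV) oocytes of the mouse, which are arrested in meiotic prophase, to see whether lowering Ell3 alters their transcripts. The 2 groups, Ell3 knockdown (Ell3 KD) and control (Ctrl), had 2 libraries each, with 5 oocytes to a library. All females had received 7.5 IU of PMSG, a gonadotropin that stimulates follicle growth, 48 h before collection, and all libraries were made from polyadenylated RNA by Smart-seq2. The knockdown method and the strain and age of the animals are not given in the sources used here.

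A histone lysine can carry more than one methyl group, and the effect of the mark depends on the residue. Methylation of H3K4 marks promoters and enhancers, H3K36 and H3K79 methylation accompany transcribed gene bodies, and H3K9, H3K27 and H4K20 methylation are linked to repression. The writers carry a SET domain, apart from Dot1l, and the erasers are either amine oxidases of the Kdm1 type or JmjC domain proteins. In mouse oocytes these enzymes shape the chromatin that is handed to the embryo: H3K4 methylation by Kmt2b becomes broad during oocyte growth, Setd2 guides DNA methylation over gene bodies, and Kdm1b is needed for maternal imprints to be set.

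Library totals lay between 65722415 and 89632815 counts in Ell3 KD and between 45131278 and 48669267 counts in Ctrl, so the groups did not overlap in depth. With all libraries thinned to the shallowest total, the counts of called members given below, 8 higher and 10 lower, were the same. Ell3, the targeted gene for an RNA polymerase II elongation factor, had 2.88 and 2.80 CPM (counts scaled to library size with TMM factors) in Ell3 KD, against 8.12 and 9.79 CPM in Ctrl. It fell by 1.66 ± 0.14 (SE, log2; adjusted p = 6.04e-10), and Serinc4, read from the same strand, covers 65.6% of its exons. Adjusted p-values here and below are from edgeR's quasi-likelihood test over all genes unless DESeq2 is named. The 10 oocyte markers had summed levels of 19580 and 19520 CPM in Ell3 KD and 20770 and 20230 CPM in Ctrl, and 2 were called higher and 4 lower, where 21.1% of all genes tested were higher and 21.8% lower. The 8 cumulus and granulosa cell markers summed to 45.7 and 47.6 CPM in Ell3 KD and to 51.4 and 49.7 CPM in Ctrl, with 1 higher and 1 lower among the 6 tested. Most of that sum came from Nr5a2, the 1 called lower, and Cyp19a1. The 1 called higher, Inha, had 2.179 and 2.475 CPM in Ell3 KD, against 0.941 and 1.135 CPM in Ctrl (adjusted p = 3.63e-04). Amh (9 and 5 counts in Ell3 KD) and Foxl2 (4 and 3 counts in Ell3 KD) had no count in Ctrl. Fshr went the other way, with means of 0.523 CPM in Ell3 KD and 0.955 CPM in Ctrl. Its log2 fold change of -0.85 ± 0.37 was not called (adjusted p = 0.0630). For Cyp19a1, Inhba and Kitl the groups overlapped and no change was called, so these markers did not move in a common direction. The 6 theca and stroma markers stayed at or below 0.405 CPM per library in sum, and the 4 haemoglobin genes had no count. The part of such cells in the results below was not tested. In pooled oocytes, fewer cells and less RNA per cell cannot be told apart, and a change is measured against the rest of each library.

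Of the 45 genes, 42 had enough counts to be tested, 8 were higher in Ell3 KD and 10 were lower at an adjusted p under 0.05. The share called, 42.9%, equals the 42.9% called among all 17879 genes tested. The shares in each direction, 19.0% higher and 23.8% lower, were also near the 21.1% and 21.8% over all genes. These counts lie at the background and are no result about the family as a whole. Changes were small: 16 of the 18 called genes moved by less than 1.5-fold, and Kdm4c alone changed at least 2-fold. Over all genes, 1678 of the 7676 called changed at least 2-fold. The median absolute log2 fold change of called genes was 0.26 for members and 0.38 over all genes. The median log2 fold change was -0.09 over the 42 genes, against -0.0024 over all genes tested. Among genes with a mean of at least 5 CPM, 15 of 36 members (41.7%) were called, against 52.5% of 9704 genes, with median absolute log2 fold changes of 0.15 and 0.16. For 39 of the 42 members the whole 95% interval of the fold change lay within 2-fold either way. The libraries of the 2 groups did not overlap for 35 of the 42, against 70.7% of all genes tested. Each gene was counted under 1 mark, although some enzymes act on more than one: Kdm4a, Kdm4b, Kdm4c and Kdm7a were counted with the H3K9 erasers. By activity, 2 of 20 tested writers rose and 3 fell, while 5 of 16 tested erasers rose and 5 fell. Whether writers and erasers differ in this was not tested.

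These counts of called members depended on single libraries. Without Ctrl replicate 2, 5 members were higher and 11 lower, since Kdm1a, Kdm4a and Kmt2a were no longer called and Dot1l was. Without Ell3 KD replicate 2, 5 were higher and 8 lower, the same 3 genes being lost together with Kdm8 and Suv39h2. Nothing in the labels tells whether the replicates came from different animals, so the p-values measure only the scatter among 4 libraries, part of which may be technical. The estimated biological coefficient of variation (BCV) was 0.0421. With an assumed BCV of 0.2 in edgeR, 0 members were called higher (1 at an unadjusted p under 0.05, and 6 with DESeq2's own dispersion) and 1, Kdm4c, lower.

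**Figure D1:**
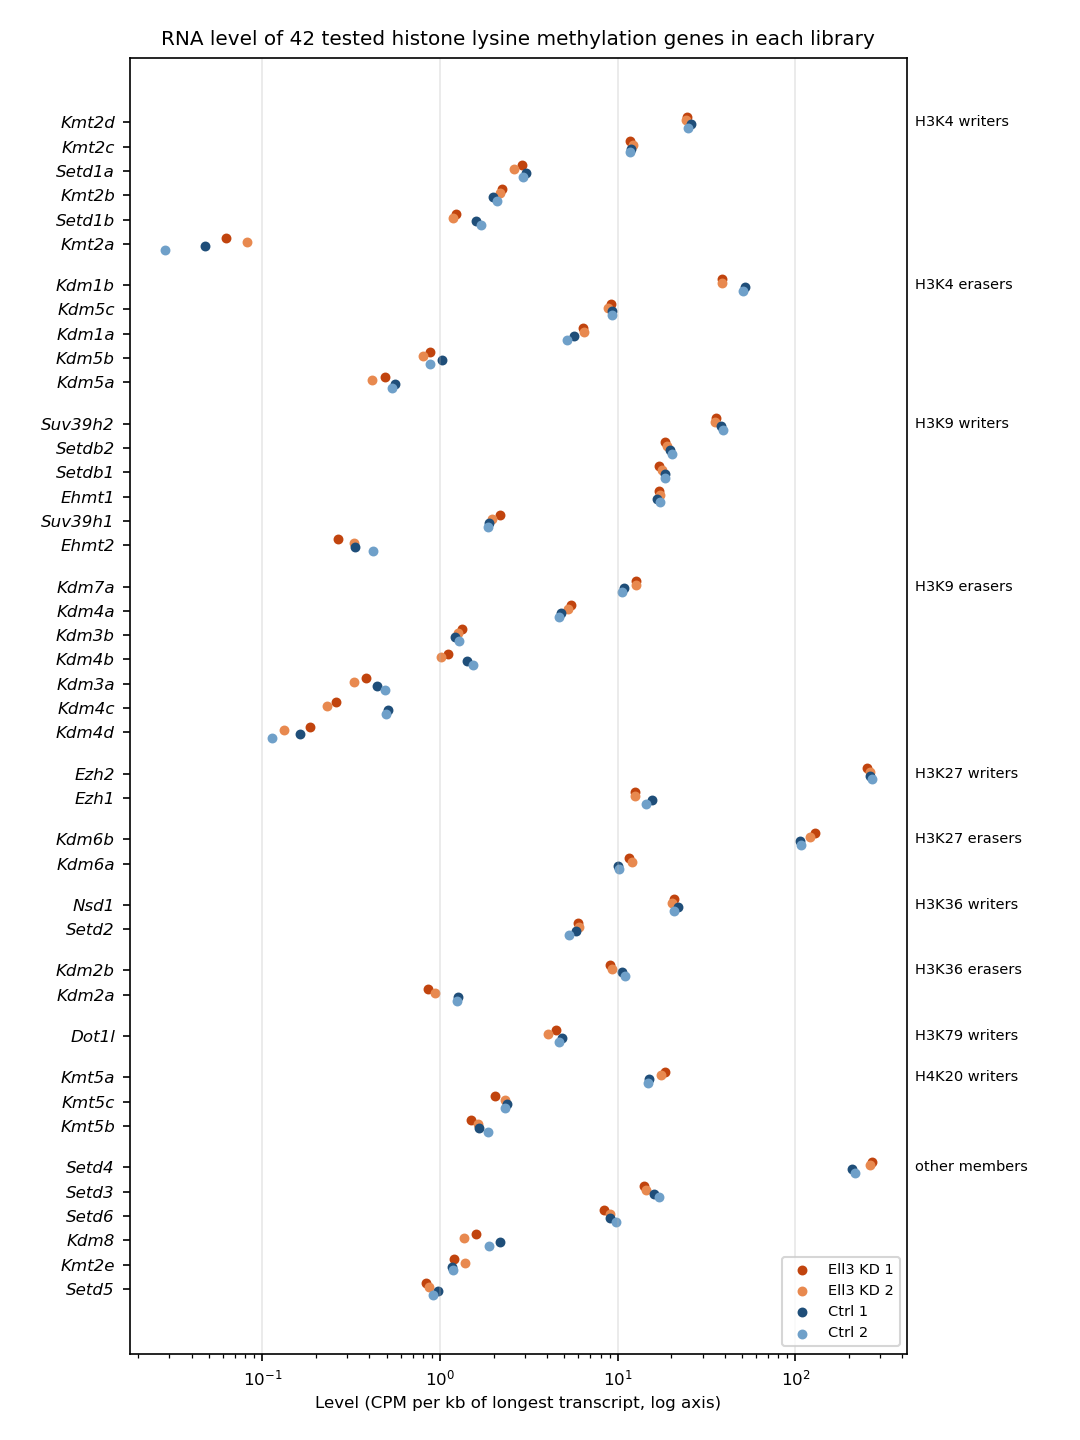
Level of each of the 42 tested genes in CPM per kilobase of its longest transcript (log axis), with a point for each Ell3 KD and Ctrl library and genes grouped by mark and activity. Ezh2, Setd4 and Kdm6b stand highest, Kmt2a and Kdm4d lowest, and the distance between genes is far larger than that between the groups.

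Levels between genes were compared as CPM per kilobase of the longest annotated transcript. They spanned a wide range, with a median of 4.53 CPM per kilobase over the 45 genes. Ezh2, Setd4, Kdm6b and Kdm1b together held 69.6% of the summed level. Ezh2, the main catalytic subunit of Polycomb repressive complex 2 (PRC2), had 257 CPM per kilobase in Ell3 KD and 267 in Ctrl. Setd4, a SET domain gene, had 266 in Ell3 KD and 212 in Ctrl, and the H3K27 demethylase gene Kdm6b 124 in Ell3 KD and 106 in Ctrl. Kdm1b, Suv39h2 and Kmt2d followed at overall means of 44.9, 37.0 and 24.9 CPM per kilobase. At the low end, Setd7 (2 and 10 counts in Ell3 KD, 0 and 0 in Ctrl), Kdm4dl (10 and 3 counts in Ell3 KD, 0 and 0 in Ctrl) and the antisense transcript Kdm6bos (2 and 0 in Ell3 KD, 0 and 3 in Ctrl) were not tested. A count of 0 allows a level of up to 0.0665 CPM in Ctrl replicate 1 and 0.0616 CPM in Ctrl replicate 2, here without TMM factors. These values take 3 counts as the limit, which covers counting error only.

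Promoter sequences of 4 called genes are shown. Kdm1b and Setd4 were the fall and the rise with the smallest adjusted p. Kdm6a and Ezh1, an eraser and a writer of H3K27 methylation, moved in opposite directions. Both were less abundant than their paralogs, and no window was available for the more abundant eraser gene Kdm6b. Each sequence is the RefSeq window from 250 bases before to 50 bases after the transcription start on GRCm38.p6. It is given 5′ to 3′ on the strand of the gene. Capitals mark every match to GGGCGG, the GC box, read on either strand. The windows are chr13:47043249-47043548 (plus strand) for Kdm1b, chr16:93603766-93604065 (minus) for Setd4, chrX:18162325-18162624 (plus) for Kdm6a and chr11:101226414-101226713 (minus) for Ezh1. By the annotation used for gene coordinates below, Setd4 begins at position 93604063, so its window lies almost wholly inside the gene.
Kdm1b: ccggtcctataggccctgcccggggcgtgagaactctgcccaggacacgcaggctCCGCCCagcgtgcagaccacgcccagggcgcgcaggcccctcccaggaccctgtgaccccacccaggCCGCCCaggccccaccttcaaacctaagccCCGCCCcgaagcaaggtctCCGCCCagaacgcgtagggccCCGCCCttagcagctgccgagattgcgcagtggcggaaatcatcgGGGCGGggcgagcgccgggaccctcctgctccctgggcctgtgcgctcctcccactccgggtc
Setd4: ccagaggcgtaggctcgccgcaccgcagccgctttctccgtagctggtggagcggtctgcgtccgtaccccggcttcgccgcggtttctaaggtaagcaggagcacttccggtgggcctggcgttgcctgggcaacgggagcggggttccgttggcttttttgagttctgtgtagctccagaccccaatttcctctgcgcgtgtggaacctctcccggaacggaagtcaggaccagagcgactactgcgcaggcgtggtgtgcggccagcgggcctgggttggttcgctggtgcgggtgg
Kdm6a: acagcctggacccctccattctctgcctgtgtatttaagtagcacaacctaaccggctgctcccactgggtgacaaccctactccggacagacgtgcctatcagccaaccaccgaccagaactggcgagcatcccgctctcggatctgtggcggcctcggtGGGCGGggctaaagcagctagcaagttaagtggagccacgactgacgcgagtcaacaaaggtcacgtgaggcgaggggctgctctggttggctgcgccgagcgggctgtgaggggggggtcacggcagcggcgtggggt
Ezh1: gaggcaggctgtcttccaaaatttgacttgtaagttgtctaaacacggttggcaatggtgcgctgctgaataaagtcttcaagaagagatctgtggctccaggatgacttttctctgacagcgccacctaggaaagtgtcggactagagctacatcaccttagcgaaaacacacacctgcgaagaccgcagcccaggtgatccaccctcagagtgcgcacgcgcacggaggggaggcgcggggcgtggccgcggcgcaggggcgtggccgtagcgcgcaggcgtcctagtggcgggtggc

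Kdm1b held 6 matches to GGGCGG in this window, Kdm6a 1, and Setd4 and Ezh1 0. The number of CG dinucleotides was 26, 29, 21 and 23 in Kdm1b, Setd4, Kdm6a and Ezh1, so all 4 windows were rich in CG beside a median of 7 over all 32817 promoter windows of the table. For 34 of the 45 genes the table held 46 windows, with more than one start for some genes. GGGCGG occurred in 69.6% of these and in 35.6% of all windows, CCAAT (either strand) in 41.3% and 37.4%, and TATAAA (either strand) in 0 of 46 and in 13.6%. A match is a description of letters only, and the genes that rose and those that fell both include windows with and without the GC box.

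**Figure D2:**
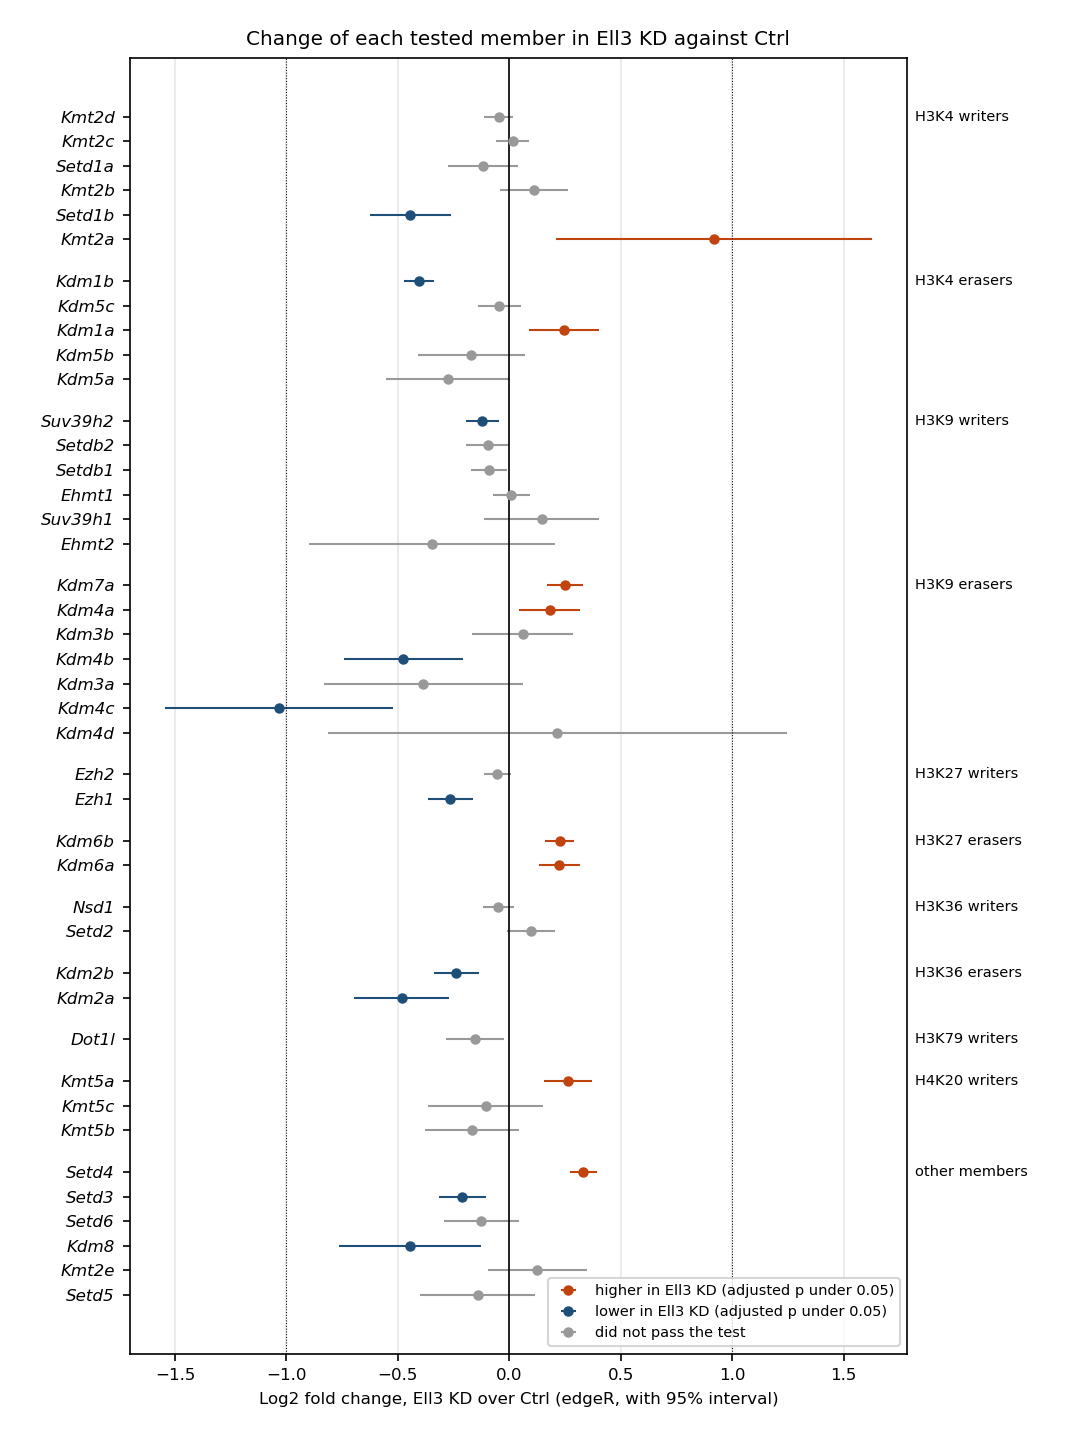
Log2 fold change of each tested gene in Ell3 KD over Ctrl with its 95% interval, grouped by mark and activity, and dotted lines at a 2-fold change. The 8 genes that rose and the 10 that fell are spread over several marks, and most intervals lie well inside the dotted lines.

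Among the H3K4 writers, 1 of 6 tested genes rose and 1 fell. Setd1b, a SET subunit gene of the COMPASS complex, had 10.9 and 10.5 CPM in Ell3 KD, against 14.1 and 15.1 CPM in Ctrl. Both Ell3 KD libraries lay below both Ctrl libraries, and the log2 fold change was -0.44 ± 0.09 (SE; adjusted p = 2.29e-04). Its paralog Setd1a had 17.8 ± 1.4 CPM in Ell3 KD and 19.4 ± 0.47 CPM in Ctrl (SD, n = 2 each), and its log2 difference of -0.12 missed the threshold (adjusted p = 0.222). In the annotation used here for overlaps, the exons of Setd1a overlap the predicted gene Gm49388 on the same strand over 51.9% of their length. No gene of that name was counted, and which annotation was counted is not recorded. What the overlap means for the counts of Setd1a is therefore not known. Kmt2d and Kmt2c, which methylate H3K4 at enhancers, were the most abundant. Kmt2d had 487.8 and 481.7 CPM in Ell3 KD, against 512.5 and 490.4 CPM in Ctrl (log2 fold change -0.05 ± 0.03, adjusted p = 0.213). Kmt2c had 175 and 182 CPM in Ell3 KD, between which both Ctrl libraries (178 and 176 CPM) lay, and its 95% interval ran from -0.06 to 0.09. Kmt2b, the H3K4 trimethylase of growing oocytes, had 18.7 CPM in Ell3 KD and 17.3 CPM in Ctrl and was not called (adjusted p = 0.241), with a log2 fold change of 0.11. This was 0.20 and called with transcript length and GC content corrected (adjusted p = 0.0327), and 0.07 without Ctrl replicate 1 (adjusted p = 0.578). Kmt2a rose on very few counts, 91 and 87 in Ell3 KD against 36 and 23 in Ctrl (log2 fold change 0.92 ± 0.34, adjusted p = 0.0332), and lost its call with DESeq2 (adjusted p = 0.102), without Ctrl replicate 2 (log2 fold change 0.58, adjusted p = 0.225) and without Ell3 KD replicate 2 (log2 fold change 0.72, adjusted p = 0.230).

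The H3K4 erasers of the Kdm1 type, which remove mono- and dimethylation with FAD, moved in opposite directions. Kdm1b (chr13:47043499-47085279, plus strand, GRCm38) had 193 and 192 CPM in Ell3 KD, against 258 and 252 CPM in Ctrl. The replicates were nearly equal within each group, and the log2 fold change of -0.41 ± 0.03 gave the smallest adjusted p of the family (adjusted p = 4.86e-10). Kdm1a, whose protein acts with CoREST and histone deacetylases, had 19.2 and 19.7 CPM in Ell3 KD, against 17.1 and 15.7 CPM in Ctrl. This was a rise of 0.24 ± 0.08 on the log2 scale (adjusted p = 0.0114), not called without Ctrl replicate 2 (adjusted p = 0.119) or without Ell3 KD replicate 2 (adjusted p = 0.0681). Per kilobase, Kdm1a made up 14.1% and 14.5% of the summed Kdm1 level in Ell3 KD, against 9.85% and 9.32% in Ctrl, so Kdm1b prevailed in every library. Exons of Kdm1b overlap those of Dek on the other strand along 9.19% of their bases, and Dek itself rose by 0.15 ± 0.04 on the log2 scale (adjusted p = 0.00240). The JmjC demethylase genes of trimethylated H3K4 did not pass the test: Kdm5c was most abundant at 58.1 CPM in Ell3 KD and 60.0 CPM in Ctrl, and the log2 fold changes of Kdm5a, Kdm5b and Kdm5c were -0.28, -0.17 and -0.04.

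Of the 6 H3K9 writers, 1 was called. Suv39h2, a trimethylase gene of pericentric heterochromatin, had 155 and 152 CPM in Ell3 KD, against 165 and 169 CPM in Ctrl. The fall of 0.12 ± 0.04 on the log2 scale (adjusted p = 0.00753) was lost without Ell3 KD replicate 2 (adjusted p = 0.102). Exons of Suv39h2 overlap Dclre1c and a predicted gene on the other strand along 9.98% of their bases, and Dclre1c, at 5.96 and 6.43 CPM in Ell3 KD against 8.885 and 8.712 CPM in Ctrl, also fell, by 0.51 ± 0.12 (log2; adjusted p = 8.49e-04). Its paralog Suv39h1 held 5.74% and 5.32% of the summed Suv39h level per kilobase in Ell3 KD, and 4.75% and 4.56% in Ctrl. Suv39h1 did not pass the test (log2 fold change 0.14 ± 0.12, adjusted p = 0.374), and 14.6% of its exon length lies opposite Gm14820, which had 557.8 CPM or more in every library, so reads there cannot be assigned with certainty. Ehmt1 and Ehmt2 form the dimethylase of euchromatin. Ehmt1 had 101.5 and 102.5 CPM in Ell3 KD, against 99.5 and 103 CPM in Ctrl, the groups overlapped, and the 95% interval of its log2 fold change ran from -0.07 to 0.09. Ehmt2 had 95 and 85 counts in Ell3 KD and 61 and 83 in Ctrl, and made up 2.35% or less of the summed Ehmt level in each library. Setdb1, a trimethylase gene of retroelement and germline gene silencing, had 96.9 and 99.8 CPM in Ell3 KD, against 104.8 and 104.5 CPM in Ctrl (log2 fold change -0.09 ± 0.04, adjusted p = 0.0677), and Setdb2 had 55.7 and 57.6 CPM in Ell3 KD, against 59.6 and 61.6 CPM in Ctrl (adjusted p = 0.0955).

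The H3K9 erasers went both ways. Kdm4c (chr4:74242497-74405860, plus strand), for a demethylase of trimethylated H3K9 and H3K36, had 1.08 and 0.974 CPM in Ell3 KD, against 2.15 and 2.09 CPM in Ctrl. It fell by 1.03 ± 0.25 on the log2 scale (adjusted p = 0.00148), the largest change among the called genes, on 96 and 63 counts in Ell3 KD and 98 and 103 in Ctrl. Kdm4b of the same family had 5.06 and 4.64 CPM in Ell3 KD, against 6.46 and 7.05 CPM in Ctrl (log2 fold change -0.48 ± 0.13, adjusted p = 0.00420). Kdm4a, the most abundant of them, had 25.3 and 24.6 CPM in Ell3 KD, against 22.3 and 21.8 CPM in Ctrl. Its rise of 0.18 ± 0.07 (log2; adjusted p = 0.0289) passed narrowly and was lost with DESeq2 (adjusted p = 0.0862) and without each library in turn, with adjusted p between 0.0548 and 0.183. With length and GC content corrected it was 0.27 (adjusted p = 0.00129). Kdm4a made up 77.8% and 79.3% of the summed Kdm4 level per kilobase in Ell3 KD, against 69.6% and 68.5% in Ctrl. Kdm7a, for a JmjC demethylase of dimethylated H3K9 and H3K27, had 121.8 and 121.6 CPM in Ell3 KD, against 104.4 and 100.5 CPM in Ctrl. It rose by 0.25 ± 0.04 on the log2 scale (adjusted p = 1.23e-05) and was the most abundant of these erasers per kilobase. Kdm3a, Kdm3b and Kdm4d did not pass the test. Kdm3a had 1.85 and 1.59 CPM in Ell3 KD, against 2.15 and 2.37 CPM in Ctrl (95% interval of the log2 fold change -0.83 to 0.06). Kdm3b had 8.48 and 8.07 CPM in Ell3 KD, against 7.70 and 8.19 CPM in Ctrl, so the groups overlapped, and 24.6% of its exon length lies opposite a predicted gene without counts.

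**Figure D3:**
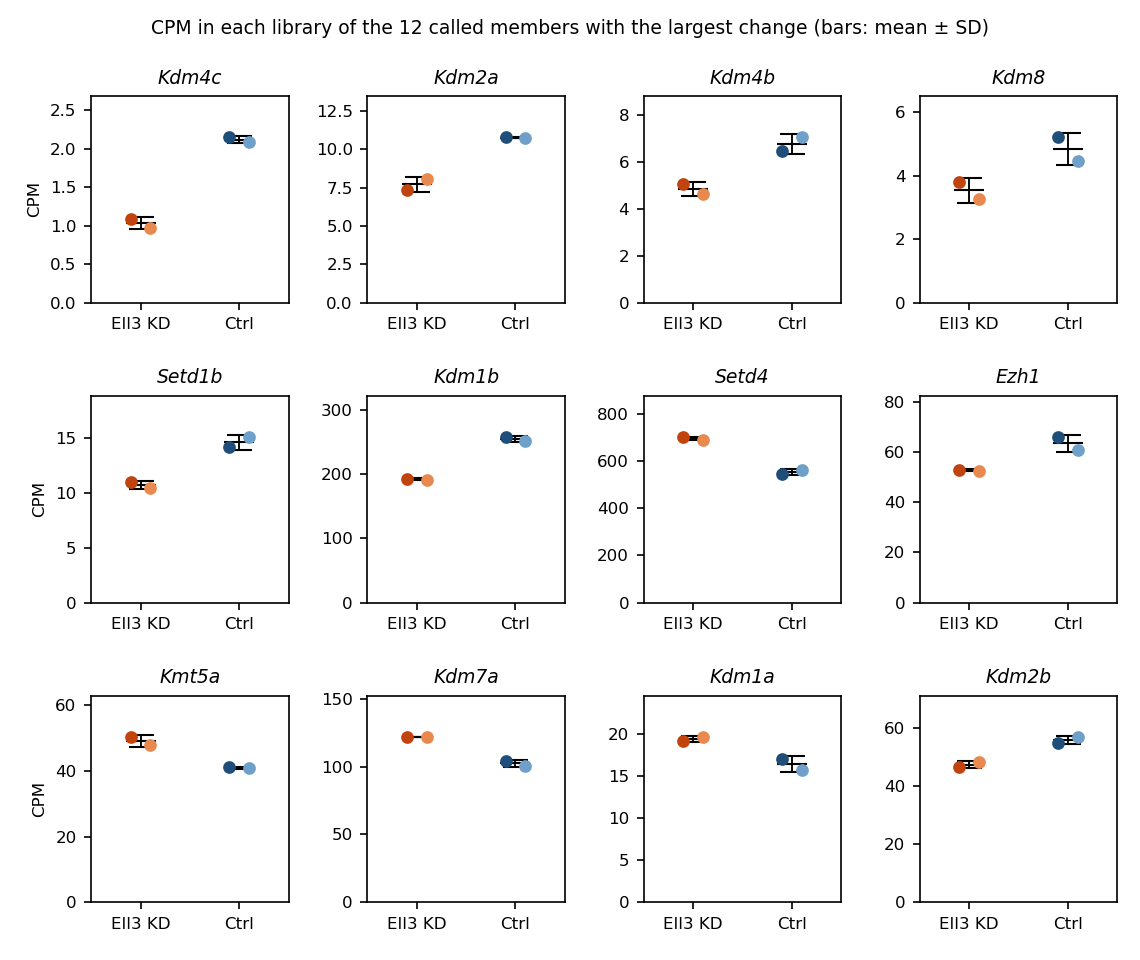
CPM in each library of the 12 called genes with the largest change among those with a mean of at least 1 CPM (left point of each group replicate 1, right point replicate 2; black bars mean ± SD; axes start at 0). In each panel, as for every called member, both Ell3 KD libraries lie on one side of both Ctrl libraries. These genes were picked by the test between the groups, and the groups did not overlap for 70.7% of all genes tested.

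For H3K27, the erasers Kdm6a and Kdm6b rose and 1 of the 2 writers fell. Kdm7a, which also acts on H3K27, is given with H3K9 above and rose too. Kdm6b (chr11:69398508-69413675, minus strand) had 853.5 and 800.2 CPM in Ell3 KD, against 702.9 and 712.4 CPM in Ctrl, a log2 fold change of 0.22 ± 0.03 (adjusted p = 2.13e-06). Kdm6a, the paralog at chrX:18162575-18279936 on the plus strand, had 68.6 and 71.1 CPM in Ell3 KD, against 59.4 and 60.1 CPM in Ctrl, with the same log2 fold change of 0.22 ± 0.05 (adjusted p = 2.72e-04). The share of Kdm6a in the summed Kdm6 level per kilobase was 8.26% and 9.06% in Ell3 KD and 8.65% and 8.64% in Ctrl, so the groups overlapped in this share. Ezh1, the less abundant catalytic subunit gene of PRC2 (chr11:101191115-101226463, minus strand), had 52.9 and 52.4 CPM in Ell3 KD, against 65.8 and 60.8 CPM in Ctrl (log2 fold change -0.26 ± 0.05, adjusted p = 9.79e-05). Ezh2 had 701.8 and 729.8 CPM in Ell3 KD, against 736.4 and 750.5 CPM in Ctrl. The libraries did not overlap, but the difference of -0.05 ± 0.03 was not called (adjusted p = 0.137), and its 95% interval ran from -0.12 to 0.01. The ratio of the summed Kdm6a and Kdm6b level to the summed Ezh1 and Ezh2 level per kilobase, without Kdm7a, was 0.529 and 0.482 in Ell3 KD, against 0.413 and 0.413 in Ctrl. Such a ratio was computed for this mark alone. The summed level per kilobase of the H3K9 erasers was also higher in Ell3 KD (21.19, against 19.26 in Ctrl). That of the H3K4 erasers (55.34 against 67.39) and of the H3K36 erasers (10.05 against 12.04) was lower. These are RNA levels, and no H3K27 methylation was measured.

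Of the genes counted under H3K36, the erasers Kdm2a and Kdm2b fell and the writers Nsd1 and Setd2 did not pass the test. The Kdm4 genes, whose products also act on H3K36, are given with H3K9 above, where Kdm4a rose and Kdm4b and Kdm4c fell. Kdm2a and Kdm2b encode JmjC proteins with a zinc finger that binds unmethylated CpG. Kdm2a had 7.37 and 8.06 CPM in Ell3 KD, against 10.8 and 10.7 CPM in Ctrl (log2 fold change -0.48 ± 0.10, adjusted p = 5.13e-04). Kdm2b had 46.6 and 48.2 CPM in Ell3 KD, against 54.8 and 56.9 CPM in Ctrl (-0.24 ± 0.05, adjusted p = 3.36e-04). Per kilobase Kdm2b held 91.3% and 90.8% of the summed Kdm2 level in Ell3 KD and 89.4% and 89.8% in Ctrl. Exons of Kdm2b overlap Rnf34 and a Rik transcript on the other strand along 7.6% of their bases, and Rnf34 differed by 0.04 (log2; adjusted p = 0.367, not called). Nsd1, a dimethylase gene, had 265.4 and 258.0 CPM in Ell3 KD, against 277.5 and 265.0 CPM in Ctrl (-0.05 ± 0.03, adjusted p = 0.234). Setd2, the gene of the H3K36 trimethylase, had 49.7 and 50.5 CPM in Ell3 KD, against 48.9 and 44.7 CPM in Ctrl, with a log2 fold change of 0.10 ± 0.05 (adjusted p = 0.133). It passed without Ctrl replicate 1 (adjusted p = 0.0303) and with length and GC content corrected (adjusted p = 0.0314). Without Ctrl replicate 2 it was 0.03 (adjusted p = 0.732).

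Of the writers for H4K20 and H3K79, only Kmt5a was called. Kmt5a encodes the enzyme that monomethylates H4K20. It had 50.4 and 47.9 CPM in Ell3 KD, against 41.2 and 40.8 CPM in Ctrl, a rise of 0.26 ± 0.05 on the log2 scale (adjusted p = 2.13e-04). Kmt5b and Kmt5c, which add further methyl groups to H4K20, lay at 9.63 ± 0.64 and 6.06 ± 0.55 CPM in Ell3 KD and at 10.8 ± 0.96 and 6.52 ± 0.16 CPM in Ctrl (SD, n = 2 each), with adjusted p = 0.190 and adjusted p = 0.520. For Kmt5c the groups overlapped, with 5.68 and 6.45 CPM in Ell3 KD and 6.631 and 6.402 CPM in Ctrl. Dot1l, the H3K79 methyltransferase gene, had 30.7 and 27.6 CPM in Ell3 KD, against 33.0 and 31.9 CPM in Ctrl. Its log2 fold change of -0.15 ± 0.06 missed the threshold (adjusted p = 0.0513) and passed it without Ctrl replicate 2 (adjusted p = 0.0461) and without Ell3 KD replicate 1 (adjusted p = 0.0209). It was -0.08 without Ell3 KD replicate 2 (adjusted p = 0.510) and -0.06 with length and GC content corrected (adjusted p = 0.445).

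The remaining members carry the family names but have other or less settled targets. Setd4 had 701.6 and 691.2 CPM in Ell3 KD, against 543.7 and 563.6 CPM in Ctrl. The rise of 0.33 ± 0.03 on the log2 scale (adjusted p = 2.27e-09) had the smallest adjusted p among the genes that rose. Setd4 lies at chr16:93583457-93604063 on the minus strand, and 1.12% of its exon length lies opposite another gene. Setd3, which encodes the actin histidine methyltransferase, had 43.2 and 43.9 CPM in Ell3 KD, against 48.6 and 52.1 CPM in Ctrl (-0.21 ± 0.05, adjusted p = 0.00177). Kdm8, for a JmjC oxygenase, had 3.81 and 3.26 CPM in Ell3 KD, against 5.21 and 4.48 CPM in Ctrl (-0.45 ± 0.16, adjusted p = 0.0222). The Kdm8 call was lost with DESeq2 (adjusted p = 0.0793), without Ctrl replicate 1 (adjusted p = 0.141) and without Ell3 KD replicate 2 (adjusted p = 0.171). Kmt2e, Setd5 and Setd6 did not pass the test, with log2 fold changes of 0.13, -0.14 and -0.13. For Kmt2e, 9.31% of the exon length lies opposite Srpk2, which had 247.2 CPM or more in every library. Reads there cannot be assigned with certainty.

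**Figure D4:**
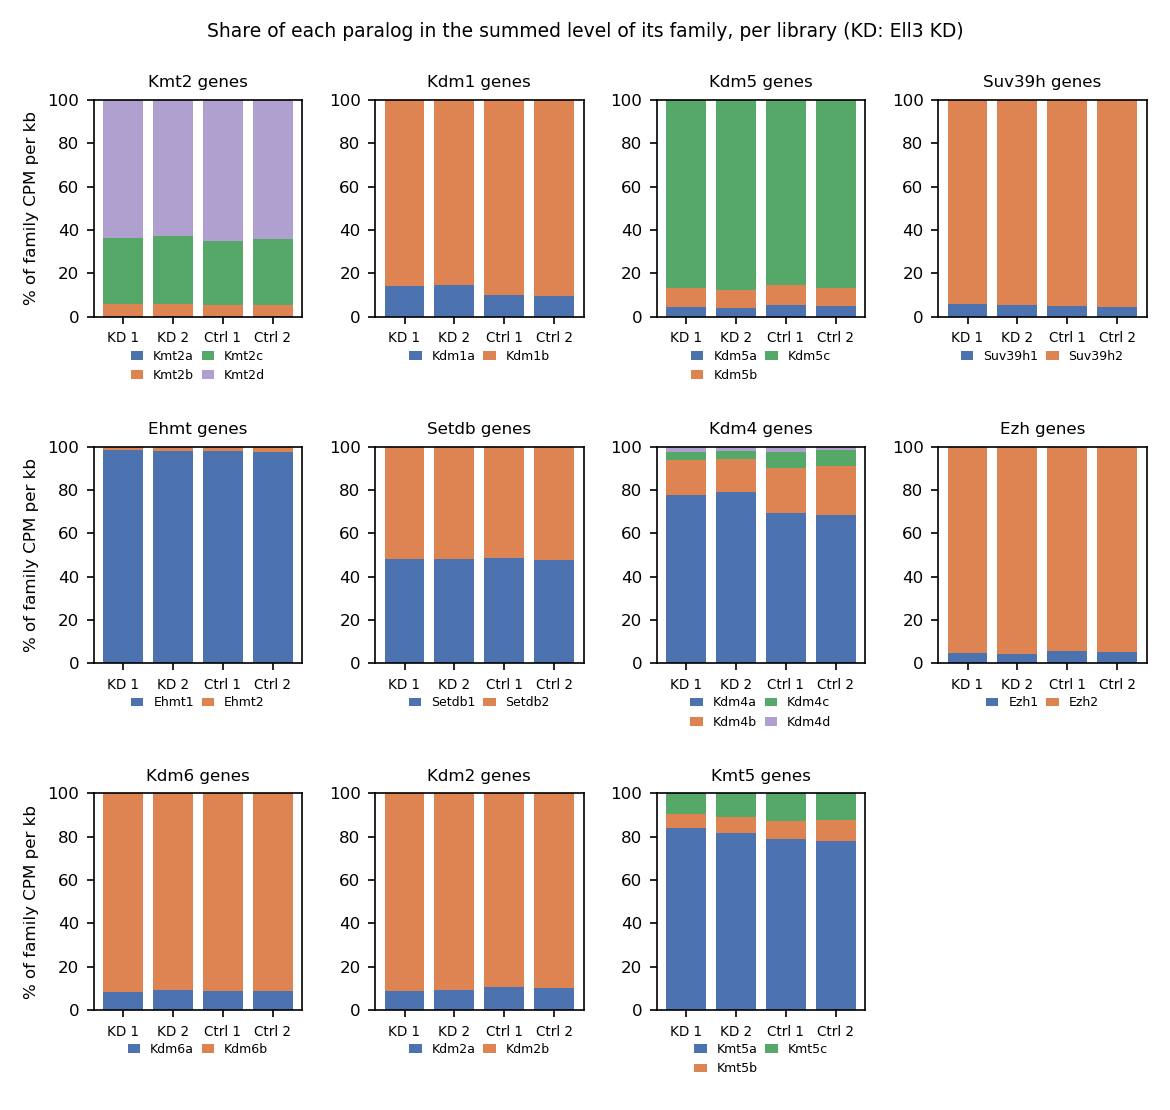
Share of each paralog in the summed CPM per kilobase of its family, with a stacked bar for each Ell3 KD (KD) and Ctrl library. Kdm1a takes a larger share of the Kdm1 level in Ell3 KD (14.1% and 14.5%) than in Ctrl (9.85% and 9.32%), and Kdm4a of the Kdm4 level, while one paralog prevails in most families in every library.

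The enzymes act in complexes, and their partners were counted from lists chosen by function. Over all genes tested, 21.1% were higher and 21.8% lower (42.9% called), and the counts of these short lists are descriptions to be read against those shares. Of 13 tested partners of the H3K4 methyltransferases, 3 rose and 4 fell, with a median log2 fold change of -0.05. The core subunit gene Wdr5 fell by 0.34 ± 0.04 on the log2 scale (adjusted p = 5.06e-08) and Rbbp5 by 0.18 ± 0.04. The core subunit gene Ash2l had 72.8 CPM in Ell3 KD and 75.3 CPM in Ctrl and was not called (adjusted p = 0.370). The core subunit gene Dpy30 rose by 0.23 ± 0.03 and Bod1 and Bod1l by 0.51 ± 0.05 and 0.37 ± 0.04. Psip1 had 259.2 CPM in Ell3 KD and 258.4 CPM in Ctrl. Of 10 PRC2 partners, 4 rose and 2 fell (median 0.08): the core subunit genes Eed and Suz12 rose by 0.13 ± 0.03 and 0.12 ± 0.04, the histone-binding subunit gene Rbbp7 by 0.11 ± 0.03, and the accessory subunit gene Mtf2 by 0.30 ± 0.05. The pair that fell was Jarid2 and, on very low counts, Phf19. Of 11 partners and readers of H3K9 methylation, 2 rose and 3 fell (median 0.02), with the corepressor gene Trim28 rising by 0.43 ± 0.05 and Uhrf1, of maintenance DNA methylation, falling by 0.17 ± 0.03. Zfp644 rose by 0.26 ± 0.06 and Fam208a fell by 0.25 ± 0.06, while the reader gene Mphosph8 had 351.4 CPM in Ell3 KD and 337.6 CPM in Ctrl (adjusted p = 0.182). Of 9 Kdm1 partners, 3 rose and 3 fell (median 0.04). Of the CoREST genes, Rcor1 and Rcor3 fell by 0.30 ± 0.08 and 0.53 ± 0.12, and Rcor2, on low counts, was not called (adjusted p = 0.914). The deacetylase gene Hdac2 fell by 0.10 ± 0.04 (adjusted p = 0.0444). Its paralog Hdac1 differed by 0.26 ± 0.12 and was not called (adjusted p = 0.0709). Phf21a rose by 0.45 ± 0.12 and Hmg20b by 0.16 ± 0.05. Glyr1, whose protein binds Kdm1b, lay at 159.6 CPM in Ell3 KD and 155.0 CPM in Ctrl and was not called (adjusted p = 0.362).

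Methyltransferase and JmjC genes outside the naming series were examined beside them, against the same shares of 21.1% higher and 21.8% lower over all genes. Of 12 other SET and PR domain genes tested, 2 rose and 5 fell (median -0.11), and 4 of the 5 that fell were Smyd2, Smyd3, Smyd4 and Setmar. Prdm2 rose by 0.14 ± 0.05. Nsd2 and Nsd3, the relatives of Nsd1, did not pass the test (log2 fold changes -0.04 and -0.06). Of 12 other JmjC genes tested, Tyw5, whose protein modifies tRNA, rose by 0.62 ± 0.08 (log2; adjusted p = 1.45e-06) and Riox2, a ribosomal oxygenase gene, fell by 0.16 ± 0.04. Jmjd6 and Phf8 had 119.7 and 75.3 CPM in Ell3 KD and 122.8 and 78.0 CPM in Ctrl and were not called. Of 11 genes for histone H3.3 and for DNA methylation, 4 rose and 4 fell: the maternal factor gene Dppa3 rose by 0.49 ± 0.03, the H3.3 genes H3f3a and H3f3b rose by 0.31 ± 0.04 and 0.22 ± 0.03, and the de novo methyltransferase gene Dnmt3a fell by 0.26 ± 0.03.

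Member transcripts were long, with a median of 5.79 kb for the longest annotated transcript, against 2.83 kb over the 17308 tested genes with a length. Spearman's rho between log2 fold change and transcript length was 0.049 across the 42 members and -0.128 across those 17308 genes, which share the same 4 libraries and are not independent. With the trend on length and GC content removed, all 18 calls were kept, Kmt2b and Setd2 were added, and the median of the members was -0.04 in place of -0.09.

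**Figure D5:**
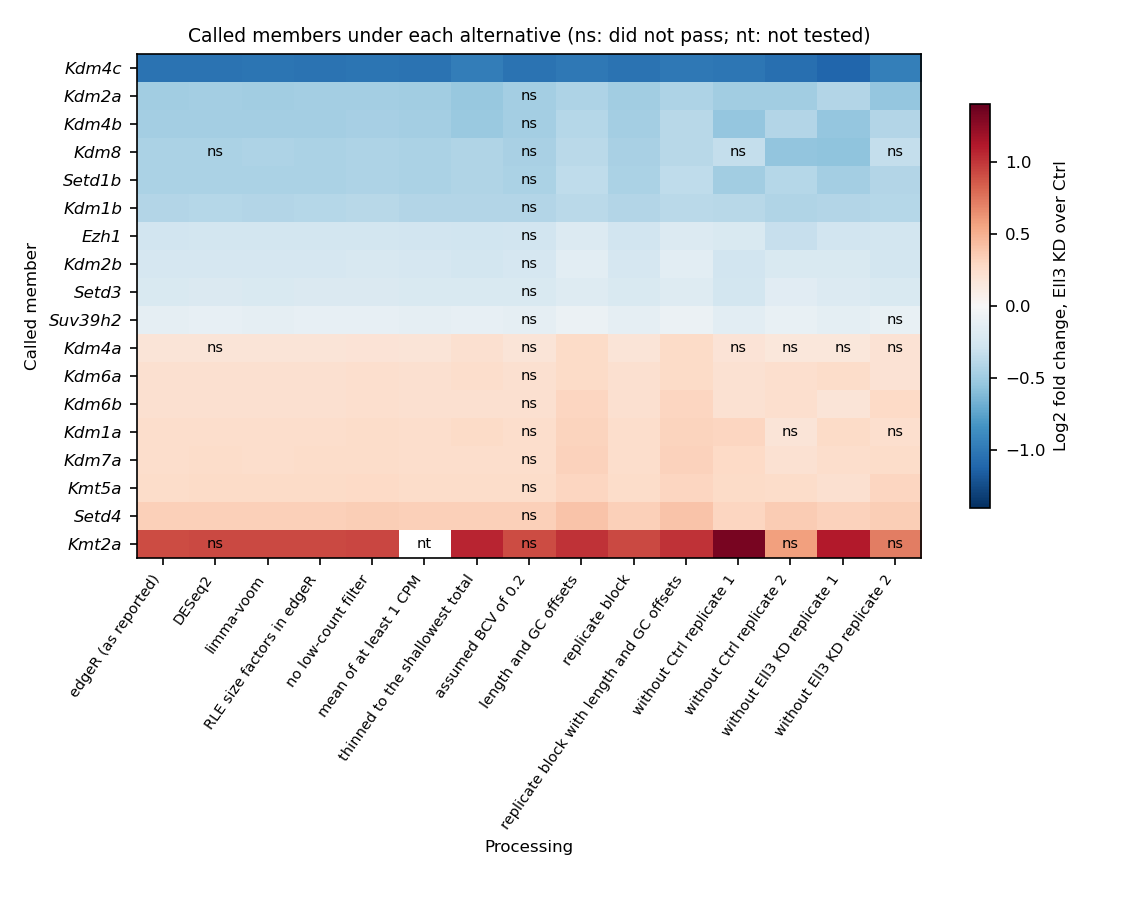
Log2 fold change (Ell3 KD over Ctrl, color) of the 18 called genes under the reported edgeR fit and each alternative, with cells marked where the adjusted p was 0.05 or higher (ns) or the gene was not tested (nt). Apart from the assumed BCV of 0.2, which left only Kdm4c, calls were lost for Kdm4a, Kdm1a, Kmt2a, Kdm8 and Suv39h2.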

How the data were processed

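Gene counts of 4 libraries were analysed, 2 from Ell3 KD and 2 from Ctrl mouse GV oocytes, grouped by sample title. The authors deposited 1 file of raw counts for each library. Build mm10 and the programs HISAT2 2.2.1.0, featureCounts and FastQC 0.11.5 are named, per the submitters' processing notes. Which annotation and strand setting were counted, and what was done with multi-mapping reads, is not recorded in the sources used here.

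The main test was edgeR 4.0.16's two-sided quasi-likelihood test (R 4.3.3, after filterByExpr and TMM scaling) on all genes together, with Benjamini-Hochberg adjustment over the 17879 genes tested and a threshold of 0.05. Standard errors were the log2 fold change over the square root of F, and 95% intervals used 26.3 degrees of freedom. Replicates differed beyond sampling noise (chi-square over its degrees of freedom, 3.6 for Ell3 KD and 3.45 for Ctrl). Alternatives used DESeq2 1.42.0, limma 3.58.1, other scalings, filters, thinning, length and GC offsets, a replicate block and each library left out. Coordinates, lengths and exon overlaps came from GENCODE M21 on GRCm38.

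The genes, partner lists and roles were chosen with earlier results of these data known. Values per library were to be given for the 12 called members with the largest change at 1 CPM or more, the 6 with the highest level per kilobase, and the 4 with the largest adjusted p at 5 CPM or more. From each partner list the called genes with the smallest p and the genes of highest CPM were to be named. Other members and list genes, and genes overlapping members, were chosen after their values were seen. 1 gene of the partner lists is not reported here.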

Additional observations from a re-analysis of the deposited data

How the results depend on the processing

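With 2 libraries per group, the calls rest on the spread between those libraries. With an assumed BCV of 0.2, 861 genes were higher and 1103 lower, against 3770 and 3906, and 0 and 1 members were called, against 8 and 10. That setting called 17 of the 18 members' changes no longer, and could hardly call changes this small. Leaving out 1 library gave 5 to 8 members higher and 8 to 11 lower, 2797 to 3482 genes higher and 2922 to 3439 lower, and a median member log2 fold change of -0.0797 to -0.0676, against -0.0943. The median was -0.0397 with length and GC offsets and -0.0396 with these and the replicate block; these offsets remove a trend by construction. Under the other alternatives run (DESeq2, limma-voom, RLE size factors, both filters, thinning, the replicate block), the counts stayed within 1.5 times, and no member's called change reversed under any alternative. Apart from the assumed BCV, 13 of the 18 members kept their call under every alternative that tested them. Replicate numbers are not said to pair libraries, and deviations of same-numbered libraries had a correlation of 0.0294. With the replicate block, 8 members were higher and 13 lower, the added ones being Dot1l, Ezh2 and Setdb1. Depth limits Kmt2a, Kdm3a, Kdm4c, Kdm4d and Ehmt2, each near or under 2 CPM, where small changes were not detectable.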
